A study of Ovis aries with 16 samples.

Results

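The stress axis was followed through 8 of its genes in the hypothalamus of 16 late-gestation fetal sheep: the corticotropin-releasing hormone (CRH) binding protein CRHBP, the receptors CRHR1, AVPR1B and NR3C1, and the steroid-handling genes HSD11B1, STAR, CYP11A1 and CYP17A1. The rule that picks them uses gene names and no measured value, although the set was proposed with earlier results of these data known. The members are all probes that the array's annotation assigns to these 8 genes. That gave 14 of 15008 probes, and 8 of 966 gene names. Of the 14 probes, 13 were well above background on at least 4 arrays, by the scanner software's own flag, and were tested among 12937 probes. The probe left out was 1 of the 2 for CYP17A1.

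RNA of 1 fetus was labeled and hybridized to each array, a single-color Agilent ovine oligonucleotide array. All fetuses carried chronic catheters and were studied at 124 to 128 days of gestation, with term at 147 days. Each of the 4 groups held 4 fetuses. Control fetuses had a sham period without treatment. BCO fetuses had their brachiocephalic artery, the vessel that supplies the fetal head, occluded for 10 min. Estradiol fetuses received 250 ug of estradiol per day for 5 days before a sham period, and estradiol+BCO fetuses received the same estradiol and then the occlusion. The tissue was collected 1 h into the experiment, counted from when the occlusion or sham began, so the data show a single early time. The fetus is the replicate; the labels used here do not say which fetuses shared a ewe.

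The hypothalamic-pituitary-adrenal axis links brain and adrenal cortex. Hypothalamic neurons release CRH and vasopressin, pituitary corticotrophs answer with ACTH, and the adrenal cortex releases glucocorticoids that act back on brain and pituitary through the glucocorticoid receptor. In the sheep fetus this axis also drives the preparation for birth. STAR brings cholesterol into the mitochondrion, CYP11A1 cleaves its side chain to make pregnenolone, and CYP17A1 then opens the route to cortisol and the sex steroids. The adrenal cortex and gonads are the main sites of these steps, and the brain carries much lower amounts of the same enzymes.

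The probes matter for what follows, because 6 of the 8 genes had 2 probes and the members of a pair did not always report the same thing. Sequences are shown for the probes whose readings decide how far a gene's values can be taken, written 5′ to 3′ as the array lists them. Capitals in the AVPR1B pair mark the only base that each probe does not share with the other; elsewhere there are none.
CRHR1 probe: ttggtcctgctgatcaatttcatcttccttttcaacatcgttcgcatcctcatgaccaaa
AVPR1B first probe: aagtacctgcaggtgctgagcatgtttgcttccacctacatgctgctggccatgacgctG
AVPR1B second probe: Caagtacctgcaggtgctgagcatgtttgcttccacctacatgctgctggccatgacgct
NR3C1 probe: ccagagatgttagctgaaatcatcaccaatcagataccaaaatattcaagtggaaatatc
CYP11A1 first probe: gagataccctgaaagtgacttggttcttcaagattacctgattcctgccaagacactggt
CYP11A1 second probe: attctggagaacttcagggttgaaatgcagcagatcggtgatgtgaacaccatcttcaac
CYP17A1 second probe: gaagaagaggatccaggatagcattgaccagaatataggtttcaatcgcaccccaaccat

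Each of these is 60 bases long. The AVPR1B probes start at bases 45 and 44 of their transcript record and share 59 bases. The CYP11A1 probes start at bases 1181 and 1431 of theirs, 250 bases apart with no base in common, and the CYP17A1 probe shown, the dimmer of its pair, starts at base 1017. The CRHBP and STAR pairs were likewise shifted by 1 base and shared 59, whereas the HSD11B1 pair lay 122 bases apart. The probe that was brightest on average is called the main probe of a gene, and levels are log2 processed signal minus the array's 75th percentile, so that 0 is the 75th percentile of each array. A level below 0 is dimmer than that percentile and does not mean that the RNA was absent. Levels of different probes are not set against each other, since probes differ in brightness per molecule.

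Arrays were well above background at 77.3 to 86.4% of probes, and the signal at the 75th percentile was 2047 to 2939 units. The arrays came from 2 slides, each with 2 fetuses of every group (replicates 1 and 2 on the first, 3 and 4 on the second) and each scanned at its own time. Between slides 860 probes differed in limma at an adjusted p under 0.05, which was 6.65% of those tested. As checks on the labelled tissue, the hypothalamic transcription factor gene ISL1 was well above background on all 16 arrays, and NR5A1, which marks the ventromedial nucleus as well as steroid-making tissue and gonadotrophs, on 2 control, 0 BCO, 3 estradiol and 2 estradiol+BCO arrays. RNA for the pituitary hormone genes PRL and POMC was well above background on every array, and POMC is also made by arcuate neurons. The pituitary genes GH, POU1F1 and GNRHR and the adrenal genes CYP11B1 and MC2R were on the array but too dim to be tested. In whole hypothalamus, fewer cells of a type and less RNA per cell cannot be told apart.

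**Figure D1:**
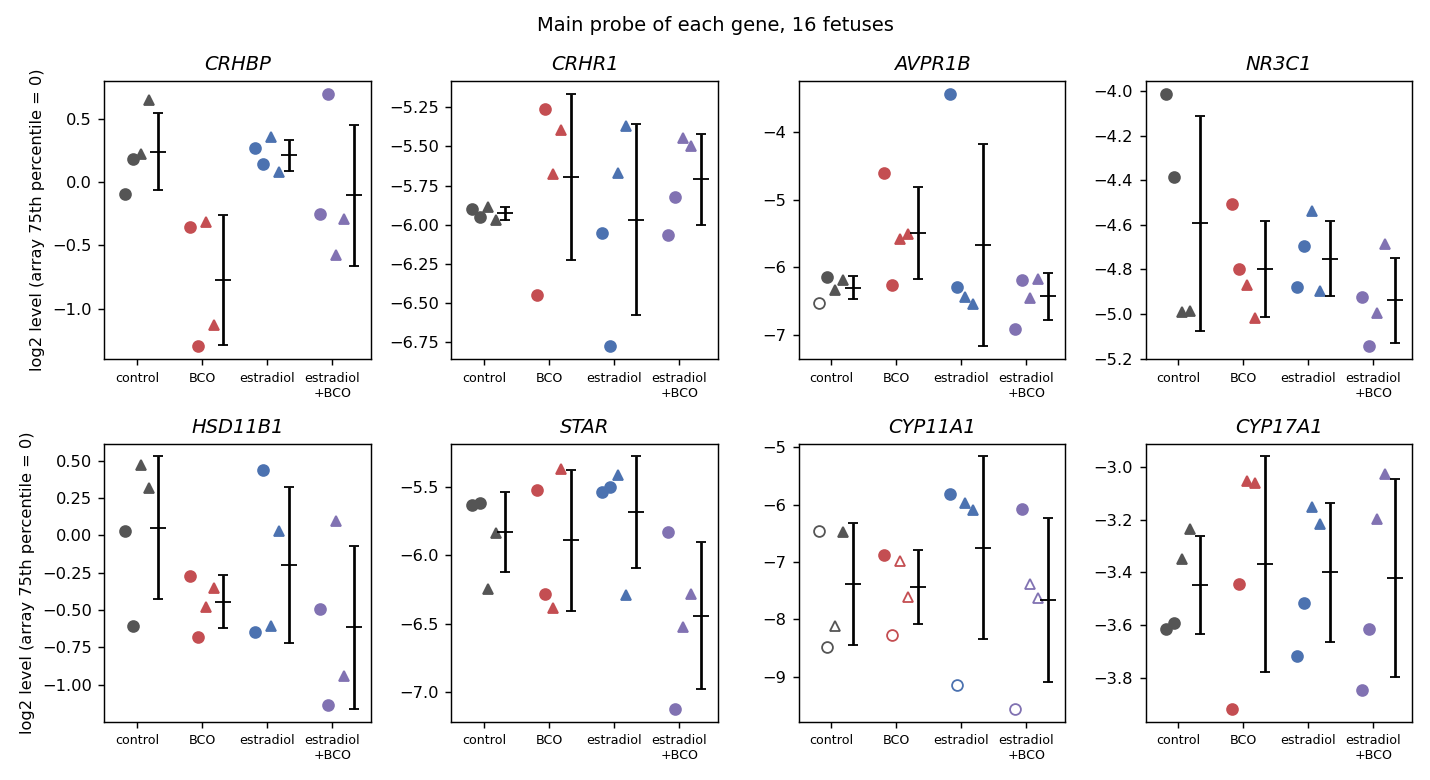
Log2 level of the main probe of each gene on the 16 arrays, by group; circles are slide 1, triangles slide 2, open symbols arrays where the probe was not well above background, and bars the mean ± SD of 4 fetuses. The 4 BCO values of CRHBP lie below the 4 control values, CYP17A1 separates by slide within every group, and CYP11A1 falls below background on most arrays.

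CRHBP, which binds CRH and keeps it from its receptors, was the member with the clearest separation between occluded and sham fetuses without estradiol. Its level was -0.09, 0.18, 0.22 and 0.65 in the 4 control fetuses and -0.36, -1.30, -0.32 and -1.13 in the 4 BCO fetuses. All BCO values lay under all control values, although BCO replicates 1 and 3 lay close to the lowest control and replicates 2 and 4 much further down. The means were 0.24 ± 0.30 (SD, n = 4) and -0.77 ± 0.51 (SD, n = 4), a difference of -1.01 ± 0.27 on the log2 scale, or 2.02-fold lower. The second probe gave -1.01 ± 0.35, again with no overlap. In limma over all tested probes the adjusted p was 0.466 for the main probe and 0.535 for the second, so the difference did not pass the threshold of 0.05. No probe on the array passed in this comparison. Complete separation in this direction was seen in 1.73% of all tested probes.

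With estradiol given first, the spread of CRHBP after occlusion was wide. The estradiol fetuses read 0.27, 0.15, 0.35 and 0.08, and the estradiol+BCO fetuses -0.25, 0.70, -0.58 and -0.29. Of the estradiol+BCO values, 3 were below every estradiol value and replicate 2 was above them all. The difference was -0.32 ± 0.27 (limma adjusted p = 0.835). Estradiol alone differed from control by -0.03 ± 0.27 (adjusted p = 1.00), and the 4 estradiol values fell within the control range. Among occluded fetuses, those given estradiol stood 0.67 ± 0.27 higher on average (limma adjusted p = 0.461), and the ranges overlapped. This difference ran from 0.40, without estradiol+BCO replicate 2, to 0.83 when 1 fetus was left out. It was 1.05 on slide 1 and 0.29 on slide 2. The change of the occlusion difference with estradiol was 0.70 ± 0.39 (adjusted p = 0.774), so the occlusion difference is not shown to differ between fetuses with and without estradiol.

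The CRHBP difference between BCO and control had the same direction on both slides, -0.87 on slide 1 and -1.16 on slide 2, with 2 fetuses per group on each. The overlapping probes of the pair followed each other across the arrays, with Pearson's r of 0.94 over 16 arrays and a median gap of 0.11 after each was centred on its median. Their largest gap, 0.79, was at estradiol+BCO replicate 3, where the second probe read -1.56 and the main probe -0.58. Since the probes share nearly all their bases, they check the spot and not the transcript.

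Across the 16 arrays, the 848 named genes were ordered by their correlation with each member's main probe, as a description of arrays that share the same groups and slides. For CRHBP the highest were the growth factor gene NRG1 (r = 0.85), the estrogen receptor gene ESR1 (0.83) and the neuropeptide gene ADCYAP1 (0.81). The lowest was KITLG, the ligand of the KIT receptor (-0.90). BCO differed from control by -0.48 ± 0.20 for NRG1, -1.53 ± 0.41 for ESR1, -0.97 ± 0.47 for ADCYAP1 and 1.89 ± 0.50 for KITLG, none of them past the adjusted threshold. Since these genes were picked over the same arrays, their differences are no separate reading of the CRHBP difference.

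**Figure D2:**
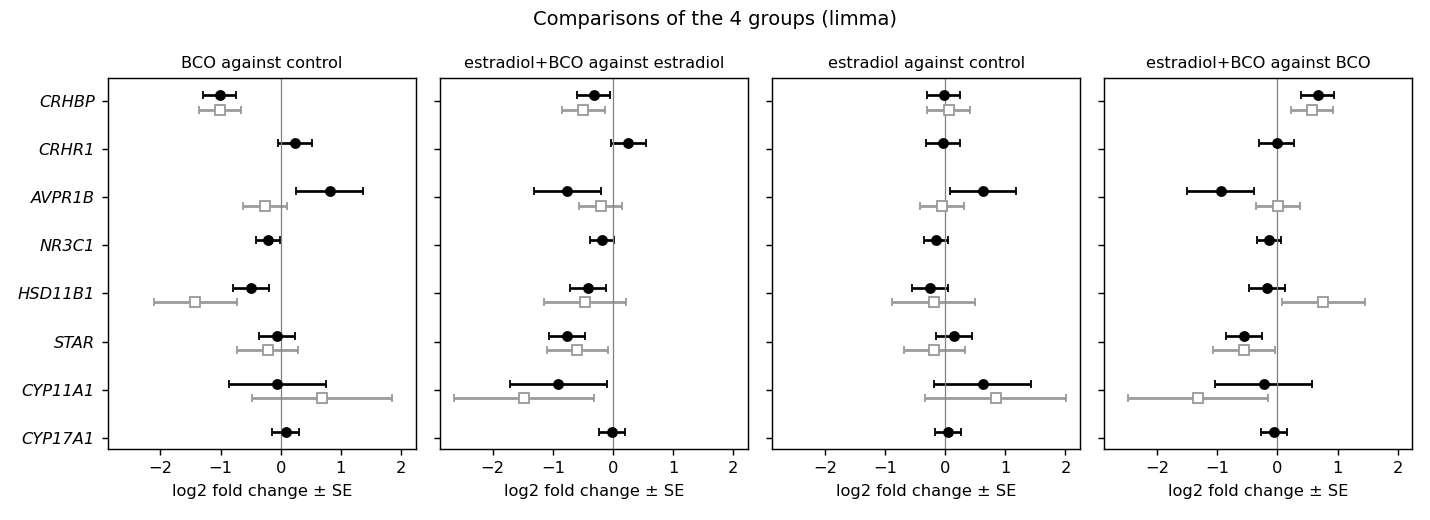
Log2 fold change ± SE from limma for every tested probe in the 4 comparisons between groups; filled circles are main probes and open squares the second probe of a gene. CRHBP stands at -1.01 on both probes in BCO against control, STAR at -0.76 in estradiol+BCO against estradiol, and the probes of AVPR1B and of HSD11B1 lie apart in BCO against control.

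CRHR1, the receptor through which CRH drives corticotrophs and which neurons also carry, was measured by 1 probe printed as 5 spots. It was well above background on all 16 arrays. The control values lay close together, between -5.97 and -5.89, and the BCO values ran from -6.45 to -5.26, on both sides of them. The estradiol values ran from -6.78 to -5.37 and the estradiol+BCO values from -6.07 to -5.45. BCO differed from control by 0.23 ± 0.29 and estradiol+BCO from estradiol by 0.26 ± 0.29 (limma adjusted p = 0.960 and 0.885). The spots of one array had a median SD of 0.21, against 0.43 between fetuses of a group. Slide 2 read 0.42 ± 0.17 higher than slide 1 (adjusted p = 0.189). The named genes most like it were SSTR5 (r = 0.78), ADRB3 (0.78) and SCNN1B (0.78), and the least like it was CGA, the alpha subunit of the pituitary glycoprotein hormones (-0.78).

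AVPR1B, the vasopressin receptor of corticotrophs, gave readings that depended on which probe of its pair was read. On the first probe printed above, which is the main probe, the control fetuses read -6.52, -6.15, -6.33 and -6.19 and the BCO fetuses -4.60, -6.26, -5.58 and -5.51. Of the BCO values, 3 were above every control value. The estradiol fetuses read -3.43, -6.28, -6.43 and -6.54, where replicate 1 stood far above the rest. The estradiol+BCO fetuses read -6.92, -6.18, -6.45 and -6.17. BCO differed from control by 0.81 ± 0.55 (limma adjusted p = 0.831), and by 0.52 without BCO replicate 1.

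The second AVPR1B probe, which lacks the last base of the first and starts 1 base earlier, did not repeat the high arrays. It read -8.13 in BCO replicate 1, where it was not well above background and so has no firm size, and -6.30 in estradiol replicate 1. BCO then differed from control by -0.27 ± 0.36 (adjusted p = 0.969), the opposite sign, which rests on that array. After centring, the gap between the probes was 3.33 at BCO replicate 1 and 2.66 at estradiol replicate 1, but the median gap was 0.19. Without BCO replicate 1 the second probe gave 0.22 ± 0.20 for BCO against control. Estradiol differed from control by 0.63 ± 0.55 on the main probe, by -0.12 on that probe without estradiol replicate 1, and by -0.05 ± 0.36 on the second. The main probe was chosen by its mean, to which its high arrays added. Its nearest named genes were CDKN1C (r = 0.72), ZO2 (0.61) and GFAP (0.60), with CD5 lowest (-0.69). With the second probe the same genes gave -0.43, -0.18, -0.13 and -0.16.

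**Figure D3:**
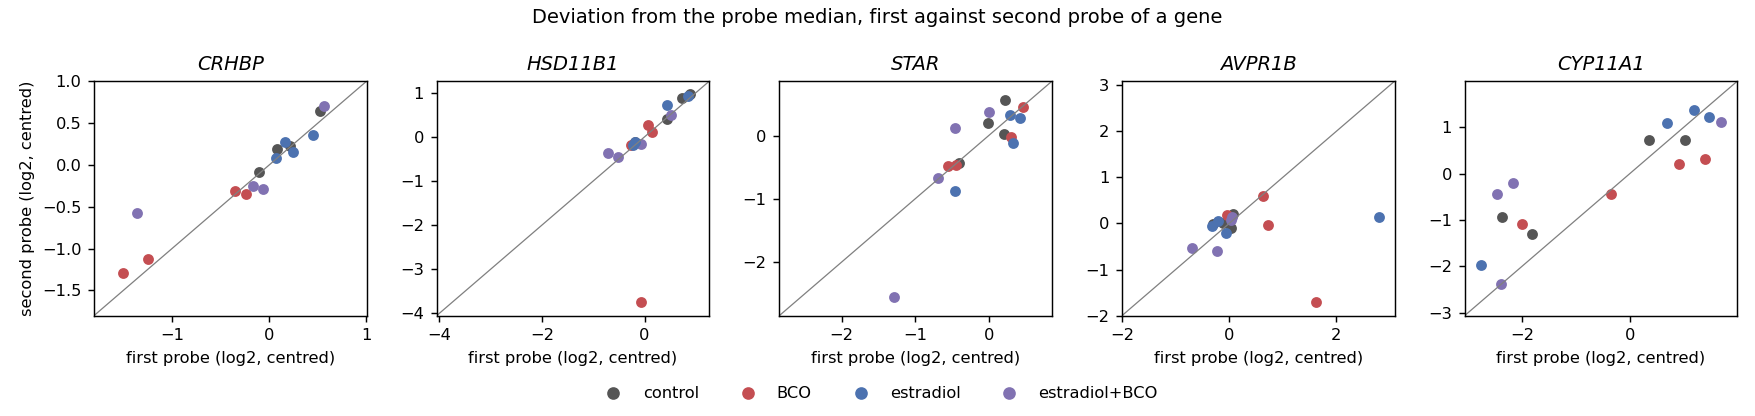
Log2 level of the probes of 5 genes on each array, each centred on its median over 16 arrays, with the line of equality; the first probe is that with the lower number in the array's list and colors are groups. CRHBP and HSD11B1 lie along the line except at 1 array each, and AVPR1B has gaps of 3.33, 2.66 and 0.75 at BCO replicate 1, estradiol replicate 1 and BCO replicate 4.

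NR3C1, the glucocorticoid receptor through which cortisol acts back on the axis, was read by 1 probe starting at base 2259 of its transcript record. The control fetuses read -4.01, -4.39, -4.99 and -4.98, the BCO fetuses -4.51, -4.80, -4.87 and -5.02, the estradiol fetuses -4.88, -4.70, -4.54 and -4.90, and the estradiol+BCO fetuses -4.93, -5.15, -5.00 and -4.69. The groups overlapped throughout, and the 2 high controls were both on slide 1. BCO differed from control by -0.21 ± 0.20 and estradiol+BCO from estradiol by -0.19 ± 0.20 (limma adjusted p = 0.924 and 0.876). The first of these was 0.04 on slide 2 alone. Estradiol differed from control by -0.16 ± 0.20, with -0.59 on slide 1 and 0.27 on slide 2. SOD2 (r = 0.63), NDUFA12 (0.61) and ARNT2 (0.56) were the named genes most like it.

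HSD11B1, the enzyme that regenerates active cortisol from cortisone inside cells, had its highest average in control fetuses. Its main probe read 0.03, -0.61, 0.47 and 0.31 in control and -0.27, -0.68, -0.48 and -0.35 in BCO. Of the controls, 3 were above all BCO values and replicate 2 was below most of them. The estradiol fetuses read -0.65, 0.43, -0.61 and 0.03 and the estradiol+BCO fetuses -0.49, -1.13, 0.10 and -0.94. BCO differed from control by -0.50 ± 0.30 (limma adjusted p = 0.798) and estradiol+BCO from estradiol by -0.42 ± 0.30 (adjusted p = 0.778). Averaged over fetuses with and without estradiol, occlusion went with a difference of -0.46 ± 0.21 (adjusted p = 0.662). BCO against control was -0.18 on slide 1 and -0.81 on slide 2.

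The second HSD11B1 probe lies elsewhere on the transcript and so reads the RNA anew. It followed the main probe, with a median gap of 0.08 after centring and none above 0.35 elsewhere, but fell away at BCO replicate 3, where it read -6.41 against -2.84 to -2.40 in the other BCO fetuses. With that array the BCO difference was -1.42 ± 0.69, and without it -0.46 ± 0.33, next to the value of the main probe. Pearson's r between the probes was 0.50 and Spearman's rho 0.90. AQP3 (r = 0.65), PON2 (0.63) and IGFBP2 (0.60) were the named genes most like the main probe, and PSMD4 the least (-0.59). With the second probe, which includes the low array, they gave 0.28, 0.06, 0.08 and -0.61.

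STAR, the carrier of cholesterol into the mitochondrion, had the lowest p of the members for occlusion in the estradiol-treated fetuses. Its main probe read -5.54, -5.50, -5.41 and -6.29 with estradiol alone and -5.83, -7.12, -6.53 and -6.28 with estradiol and occlusion. Estradiol replicate 4 lay among the estradiol+BCO values, so the groups overlapped. The difference was -0.76 ± 0.30, or 1.69-fold lower (limma adjusted p = 0.585). It was -0.96 on slide 1 and -0.56 on slide 2, -0.53 without estradiol+BCO replicate 2 and -0.96 without estradiol replicate 4. The second probe gave -0.59 ± 0.51. That probe was well above background on 12 arrays, including 2 of the 4 estradiol+BCO arrays, and its reading of -8.83 in estradiol+BCO replicate 2 was among those below that level.

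Without estradiol, STAR read -5.63, -5.62, -6.24 and -5.84 in control and -5.52, -6.28, -6.38 and -5.37 in BCO. These ranges overlapped and the difference was -0.06 ± 0.30 (adjusted p = 0.998). The change of the occlusion difference with estradiol was -0.70 ± 0.42 (adjusted p = 0.801). The named genes most like STAR were FTO (r = 0.57), LEF-1 (0.57) and TIMP3 (0.55), and the least like it was TGFB1 (-0.68).

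CYP11A1 was well above background on at least 1 probe in some fetuses and on neither in others, and both cases occurred in every group. The first probe printed above, its main probe, read -6.46, -8.48, -8.11 and -6.47 in control, -6.87, -8.27, -6.98 and -7.61 in BCO, -5.82, -9.14, -5.97 and -6.09 in estradiol, and -9.56, -6.08, -7.38 and -7.62 in estradiol+BCO. The second read -6.04, -8.87, -9.41 and -6.70 in control, -5.66, -9.06, -6.15 and -7.41 in BCO, -5.87, -9.82, -5.60 and -6.36 in estradiol, and -9.44, -5.36, -9.23 and -9.52 in estradiol+BCO. The fetuses that were high on one probe were mostly high on the other. Both probes were well above background on 6 arrays, exactly 1 probe on 2 arrays, and neither on 8. The flag did not follow the level strictly. The main probe lacked it at -6.46 in control replicate 1 and had it at -6.87 in BCO replicate 1.

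By group, at least 1 CYP11A1 probe was well above background in 2 control, 2 BCO, 3 estradiol and 1 estradiol+BCO fetuses of 4 each. Values below background have no firm size, so the fitted differences of this gene carry large errors: -0.06 ± 0.81 for BCO against control and -0.91 ± 0.81 for estradiol+BCO against estradiol (limma adjusted p = 0.999 and 0.844). The probes share no base and correlated with r = 0.87 over 16 arrays. Both were well above background on only 6 of these arrays, so readings of no firm size enter this r. It therefore does not show by itself that separate stretches of the transcript gave the same pattern.

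Other named genes had a similar pattern across fetuses. Those given here were picked from 848 by their correlation with the main probe over the same arrays. The myosin heavy chain genes OMYHC2A and OMYHC2X correlated with the main CYP11A1 probe at r = 0.88 and 0.84, and with the second at 0.93 and 0.94. PTGFR, the receptor for prostaglandin F2 alpha, gave 0.75 and 0.89. The lowest was PDIA5 (-0.82). In all, 3 tested probes correlated above 0.9 with the main probe, 0 of them named, and 12 with the second probe, 3 of them named. OMYHC2A read between -9.83 and -3.89 over the arrays. On some arrays where the second CYP11A1 probe was not well above background, OMYHC2A read close to it. In estradiol replicate 2 they read -9.83 and -9.82, and in estradiol+BCO replicate 4 -9.59 and -9.52. In estradiol+BCO replicate 3 they lay apart, at -7.09 and -9.23. Low readings of no firm size thus enter these correlations. The adrenal genes CYP11B1 and MC2R were too dim to be tested. CYP21A2 and INHA, from the same marker list, were well above background on every array. CYP21A2 ran from -3.57 to -2.18 over the arrays and INHA from -4.64 to -3.65. Whether adrenal RNA moved with CYP11A1 was not tested.

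**Figure D4:**
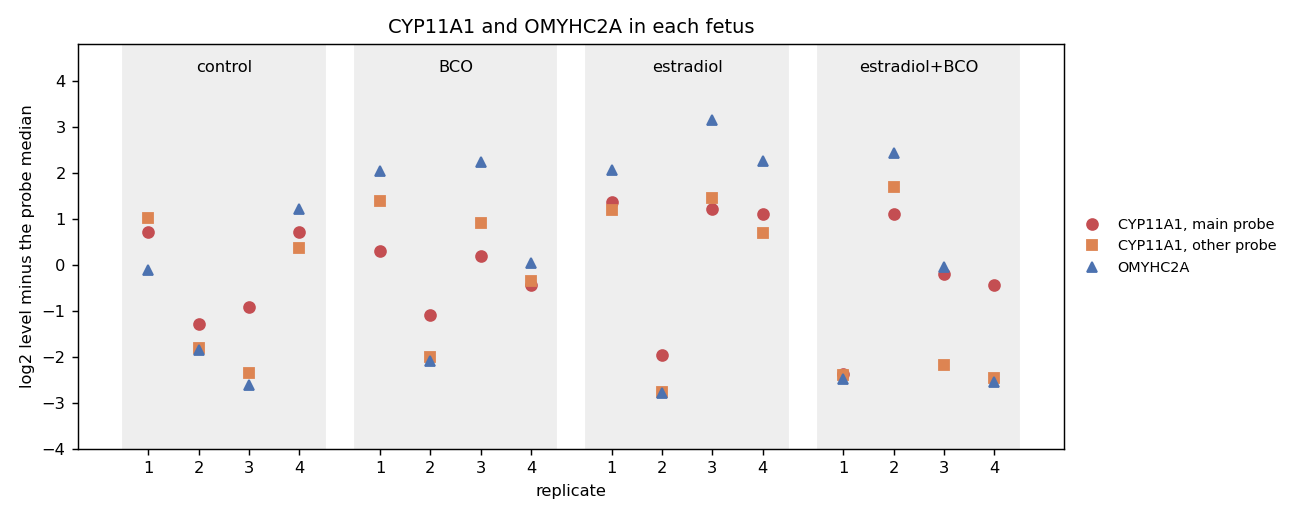
Log2 level of both CYP11A1 probes and of OMYHC2A in each fetus, each minus its median over 16 arrays; the x axis gives the replicate within each shaded group. All 3 are below their medians in control replicates 2 and 3, BCO replicate 2, estradiol replicate 2 and estradiol+BCO replicates 1, 3 and 4. They are above them in control replicate 4, BCO replicates 1 and 3, estradiol replicates 1, 3 and 4 and estradiol+BCO replicate 2.

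CYP17A1 gave readings that followed the slide. Its main probe, at base 1666 of the transcript record and ending in a run of 6 A, was printed as 5 spots and was well above background on all 16 arrays. It read -3.62, -3.59, -3.35 and -3.24 in control, -3.92, -3.45, -3.05 and -3.06 in BCO, -3.72, -3.51, -3.15 and -3.22 in estradiol, and -3.84, -3.61, -3.20 and -3.03 in estradiol+BCO. In every group both slide 2 fetuses were above both slide 1 fetuses. Slide 2 was higher by 0.50 ± 0.08 (limma adjusted p = 0.00148, 8 arrays on each), while BCO differed from control by 0.08 ± 0.22 and estradiol from control by 0.05 ± 0.22. The second probe, printed above, was well above background on 0 of 16 arrays. The main probe's readings therefore have no second reading beside them.

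The named genes most like the CYP17A1 main probe were picked over the same arrays, so a slide difference in them follows from the choice. GNLY (r = 0.96), GLP1R (0.95) and CSN2 (0.94) were higher on slide 2 by 0.85 ± 0.16, 0.76 ± 0.14 and 0.55 ± 0.09. RHOA had the lowest correlation (-0.82) and a slide difference of -0.21 ± 0.07. No other member differed by slide past the threshold.

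**Figure D5:**
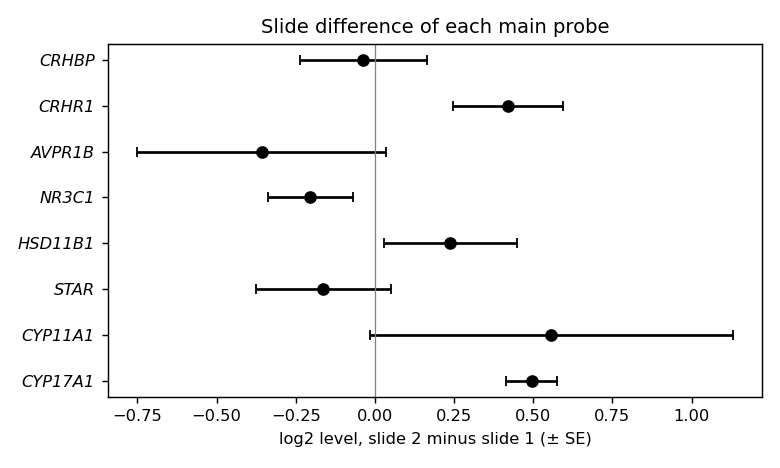
Difference in log2 level between slide 2 and slide 1 for the main probe of each gene, ± SE from limma with 8 arrays on each slide. CYP17A1 at 0.50 has the smallest error and is the only one past the adjusted threshold; CYP11A1 and AVPR1B have wide errors.

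Counted together, none of the 13 tested member probes passed an adjusted p of 0.05 in limma in any of the 6 comparisons, where 0% of all probes passed for BCO against control, estradiol against control, estradiol+BCO against BCO and the average over estradiol, and 0.00773% for estradiol+BCO against estradiol and for the interaction. At an unadjusted p under 0.05, 1 of the 8 main probes passed in BCO against control (CRHBP; 7.17% of all probes), 1 in estradiol+BCO against estradiol (STAR; 7.75%), 1 in estradiol+BCO against BCO (CRHBP; 9.52%) and 1 averaged over estradiol (CRHBP; 7.53%). None did so in estradiol against control (3.29%) or the interaction (7.2%). A single probe among 8 is near these shares. The main probes were lower in 5 of 8 genes after occlusion without estradiol (median -0.06, against 0.01 over all tested probes) and in 7 of 8 with estradiol (median -0.37, against -0.01). Of all tested probes, 47.8% and 51.2% were lower in these comparisons. With estradiol, NR3C1 (-0.19 ± 0.20) and CYP17A1 (-0.02 ± 0.22) differed by less than their SE, as did STAR and CYP11A1 without it. With estradiol, the main probe of CYP11A1 was well above background on only 1 estradiol+BCO array. The AVPR1B difference with estradiol ran from -1.05 to -0.01 when 1 fetus was left out. The comparisons with BCO against control and estradiol against control share the control fetuses, and those among occluded fetuses share the BCO or estradiol+BCO fetuses.

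Other genes of the axis were read from lists of its hormones, processing enzymes, receptors and transporters. Of 8 such genes tested, 3 were higher and 5 lower after occlusion without estradiol, with a median of -0.16; 0 passed the adjusted limma threshold and 3 had an unadjusted p under 0.05, as did 7.17% of all probes. Those 3 were oxytocin, OXT (-2.70 ± 0.90, adjusted p = 0.510), the ACTH precursor POMC (-1.54 ± 0.51, adjusted p = 0.511) and the prohormone convertase PCSK1 (-0.56 ± 0.24, adjusted p = 0.662). ABCB1, an efflux pump, followed (-0.21 ± 0.12). POMC ran from 0.69 to 1.98 in control and from -0.71 to -0.02 in BCO, without overlap. PCSK1 did not overlap between these groups either, whereas OXT did. Such separation, with all BCO values below all control values, was seen in 1.73% of all tested probes. With estradiol, 4 of the 8 were higher and 4 lower, 0 passed, and 2 had an unadjusted p under 0.05 (7.75% of all probes): PCSK1 (-0.81 ± 0.24) and the processing enzyme CPE (-0.26 ± 0.12). OXT (1.64 ± 0.90) and POMC (-0.89 ± 0.51) came next.

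Of 4 other genes of steroid synthesis that were bright enough, 2 were higher and 2 lower after occlusion in either background, and 0 passed in limma. NR5A1, the factor that turns on the steroid enzyme genes, was dim in all BCO fetuses, with 0 of 4 arrays well above background, and read from -9.58 to -8.90 there, against -8.61 to -6.60 in control. TSPO, a mitochondrial cholesterol-binding protein, differed by -0.35 ± 0.30 and the 21-hydroxylase gene CYP21A2 by 0.03 ± 0.25. Among genes that glucocorticoids induce in many tissues, 3 of 4 were higher after occlusion without estradiol and 2 of 4 with it, with 0 past the adjusted threshold. Of all tested probes, 47.8% were lower without estradiol and 51.2% with it. Without estradiol, CEBPB (0.01 ± 0.29), IGFBP1 (0.40 ± 0.41) and PCK1 (-0.40 ± 0.50) differed by less than their SE. NFKBIA, the inhibitor of NF-kappa B, differed by 0.93 ± 0.43 without estradiol and 0.69 ± 0.43 with it (limma adjusted p = 0.693 and 0.746).

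Pituitary hormone genes were read in the same comparison as CRHBP, BCO against control. They differed by -1.54 ± 0.51 for POMC, -2.26 ± 1.04 for PRL and -3.08 ± 2.15 for CGA. PRL ran from -3.82 to 1.12 in control with a median of -3.60, so its control mean was raised by the highest fetus. In BCO it ran from -6.47 to -2.19, so the groups overlapped. LHB (-0.11 ± 0.19) and FSHB (-0.66 ± 1.25) differed by less than their SE. FSHB was well above background on only 2 control and 2 BCO arrays. All 5 tested had a lower mean, by a median of -1.54, where 47.8% of all tested probes were lower. In limma 0 passed the adjusted threshold and 2 had an unadjusted p under 0.05, against 7.17% of all probes. Their summed level, which weighs the brighter probes most, in multiples of the array's 75th percentile, ran from 5.49 to 11.3 in control, 4.51 to 6.55 in BCO, 6.31 to 18.8 in estradiol and 5.19 to 7.77 in estradiol+BCO. LHB had the highest median level of the 5 in every group, 2.19 in control and 1.90 in BCO, and so weighs much in this sum. CGA reached 3.44 in estradiol, the group with the highest sum. Of the 3 hypothalamic neuron markers, ISL1 differed by -1.24 ± 0.53 and ARNT2 by -0.05 ± 0.14, less than its SE. NR5A1 also had a lower mean, but was well above background on only 2 control and 0 BCO arrays. In limma 0 of the 3 passed the adjusted threshold. Their summed level was 0.255 to 0.411 in control, 0.0696 to 0.331 in BCO, 0.146 to 0.457 in estradiol and 0.124 to 0.294 in estradiol+BCO. That sum is mostly ISL1, whose level ran from -2.19 to -1.39 in control and from -4.62 to -1.71 in BCO. Whether either tissue's share of the dissected block had a part in the CRHBP difference was not tested.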

How the data were processed

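The authors labeled hypothalamic RNA (500 ng, RNA integrity 7.4 to 8.4, per the labels) with Cy3. Per the file headers, Agilent Feature Extraction wrote the deposited intensity of each spot after background subtraction and detrending, with flags for spots well above background. The deposited value table holds log2 processed signals minus each array's median, found by setting it against the scanner files. Builds were not given in the sources used here, so no genome positions are printed.

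Here, spots of a probe were averaged after outlier spots (2 to 36 per array) were left out, and log2 processed signal was centred on each array's 75th percentile. Gene names came from the array annotation and RefSeq. Probes well above background on at least 4 arrays were fitted in limma 3.58.1 (R 4.3.3) with all 4 groups in 1 model and 6 contrasts; p-values are two-sided and adjusted by Benjamini-Hochberg over 12937 probes. Errors after ± are standard errors for differences and SD for means. The script was tested on simulated data.

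The members, lists and tests were chosen with earlier results of these data known. Named genes were every member probe, the 3 named genes with the highest and the 1 with the lowest correlation per main probe, and up to 4 genes of lowest p per pathway list; a few genes that this rule selects are not reported here. Alternatives were median centring, quantile normalization, normexp with an offset of 50, other filters, slide and replicate blocks, single slides, the deposited values, the other probe and leaving out each fetus. With 4 arrays per group, their number limits the precision.

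Marker lists for neurons and oligodendrocytes had 0 genes on the array. For BCO against control the other lists held 0 called genes: astrocytes had 2 of 4 higher, endothelial and mural cells 2 of 2, fibroblasts and meninges 1 of 4, choroid plexus 0 of 1, microglia and leukocytes 0 of 3, and adrenal cortex 1 of 3.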

Additional observations from a re-analysis of the deposited data

Results flagged for a closer look

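In 56 sets of 4 fetuses (each member probe in each group), 5 held 1 array far from the other 3 by Dixon's criterion; chance marks about 1 in 20 such sets. AVPR1B on its main probe read -3.43 in estradiol replicate 1, against -6.54 to -6.28 in the other 3. HSD11B1 on its second probe read -6.41 in BCO replicate 3, against -2.84 to -2.40. STAR on its main probe read -6.29 in estradiol replicate 4, against -5.54 to -5.41. CYP11A1 read -5.36 on its second probe in estradiol+BCO replicate 2, against -9.52 to -9.23, and -9.14 on its main probe in estradiol replicate 2, against -6.09 to -5.82. The CYP11A1 readings of -9.52 to -9.23 and of -9.14 were not well above background and have no firm size. The share of 1 in 20 need not hold for such values. The second probe of AVPR1B and the main probe of HSD11B1 did not meet the criterion at those arrays, and neither did the other CYP11A1 probe at either of its arrays.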

How the results depend on the processing

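Of 1346 alternative values for the 48 member differences, 0 passed the threshold and 108 had another sign than the reported value, among them values of all 8 genes. A change of sign was counted as a reversal only where the reported difference exceeded its SE. By that count 10 reversed and 9 others moved by more than 1 SD between fetuses. The 10 were CRHBP (estradiol+BCO against estradiol, 0.0159 on slide 1 alone), CRHR1 (average over estradiol, -0.0221 with normexp), NR3C1 (BCO against control, 0.0433 on slide 2 alone) and AVPR1B. For AVPR1B the second probe gave -0.27 for BCO against control, -0.0475 for estradiol against control, 0.0109 for estradiol+BCO against BCO and 0.0584 for the interaction, slide 2 alone gave 0.17 for estradiol+BCO against estradiol and -0.22 for estradiol against control, and leaving out single fetuses gave -0.12 to 0.92 for the latter. The cause was not tested. The CRHBP difference between BCO and control ranged from -1.17 to -0.84 over its alternatives, with adjusted p from 0.368 to 0.998.

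Over all probes, BCO against control had 0 calls, 3 with its groups fitted alone, 14 on slide 2 alone and 0 to 6 when 1 fetus was left out, with the 6 reached without BCO replicate 2. Estradiol against control had 0 calls and 1 on slide 2 alone. Estradiol+BCO against BCO had 0 calls, 14 on slide 2 alone and 0 to 5 without 1 fetus (5 without BCO replicate 1). Estradiol+BCO against estradiol had 1 call and 0 with its groups alone, median centring, the deposited values or either slide alone, and 0 to 1 without 1 fetus. The interaction had 1 call, 0 with median centring, no filter, quantile normalization, the deposited values or either slide alone, 3 with the slide as a block and 0 to 3 without 1 fetus (3 without BCO replicate 1).

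With the replicate number as a block, estradiol+BCO against estradiol had 0 calls and the interaction 3; no member was called. Same-numbered fetuses correlated above 0.1 in 20 of 24 pairs (-0.02 to 0.27). Their median was 0.12, against 0.14 for pairs with other numbers on the same slide. Only 3 of 16 arrays correlated best with their own number, so the numbers were not taken as a pairing.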

Other observations

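The run of 6 A at the end of the CYP17A1 main probe is shared by 132 tested probes. Their median slide difference was 0.13, against 0.02 over all tested probes, and 12.1% of them differed by slide past the threshold, against 6.65%. Of the 860 probes that differed by slide, 762 were higher on slide 2.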
